A study of Mus musculus with 15 samples.

Results

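Myelin is rich in cholesterol, long fatty acids and glycolipids, and the oligodendrocyte makes most of these lipids itself. The genes described here are 40 enzymes and regulators of textbook lipid synthesis pathways, all found by symbol among the 45706 genes of the deposited tables. The choice was made with earlier results of these data known, so counts by direction over the 40 are a description only. They comprise 20 genes of sterol synthesis and its control, 12 of fatty acid synthesis, elongation and desaturation, and 8 of sphingolipid synthesis. RNA was measured in primary cultures from the brains of mice with both Srf alleles floxed, that is, flanked by sites that the Cre recombinase cuts between. Serum response factor (SRF) is a transcription factor known for its control of actin cytoskeleton and immediate-early genes.

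Oligodendrocyte precursor cells (OPCs) were isolated by immunopanning, and all groups, controls included, carried the SRF-floxed/floxed genotype and received a virus. Control OPCs (4 libraries) were infected with AAV-deleted CRE, an adeno-associated virus with a truncated recombinase, and SRF-KO OPCs (3 libraries) with AAV-CRE. Both of these viruses drive an eGFP fusion from the CMV promoter, were added on day 3 of culture, and the plates were frozen 48 hours later. Control oligodendrocytes (OLs, 4 libraries) received a lentivirus with GFP and SRF-KO OLs (4 libraries) a lentivirus-CRE-IRES-GFP, added on day 6 as precursors, and were frozen on day 3 of differentiation. The labels do not say whether replicates came from separate animals, so p-values measure the spread between libraries, which may be technical. The labels give no age for the mice.

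Cholesterol is built from acetyl-CoA through mevalonate, isoprenoid diphosphates, squalene and lanosterol, and the genes of this path are switched on together by sterol regulatory element binding proteins (SREBPs) when membrane sterol is low. SREBPs encoded by Srebf1 act mainly on fatty acid genes and those encoded by Srebf2 mainly on sterol genes, while Insig1 holds the precursor proteins in the endoplasmic reticulum. Sphingolipid synthesis starts from serine and a fatty acyl-CoA, and in oligodendrocytes it leads to galactosylceramide and sulfatide, the glycolipids for which myelin is known.

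Library totals of expected counts spanned 8964310 to 16026511 among the OPCs and 4303739 to 13139258 among the OLs. Srf itself stood at 0.196 to 0.221 normalised CPM after Cre in OPCs, where the controls had 5.57 to 9.67, and at 2.06 to 4.34 after Cre in OLs, where the controls had 7.13 to 9.34. CPM is the count scaled to a common library total after TMM, edgeR's correction for library composition. Oligodendrocyte markers (6 genes, none at 0 in an OL library) had summed levels, as CPM of the library total, of 19632 to 28904 among control OLs, against 13275 to 19129 among the knockouts. Astrocyte markers (6 genes) were also abundant in the OL cultures, with summed levels of 17409 to 27569 among controls (Gfap alone 13351 to 23470) against 7943 to 13781 among knockouts (Gfap 4935 to 9598). OPC markers (5 genes) summed the other way, to 775 to 1208 among controls and 1068 to 1257 among knockouts. In the OPC cultures the oligodendrocyte markers summed to 390 to 441 among controls and 449 to 485 among knockouts. Astrocyte markers there summed to 792 to 883 among controls and 992 to 1078 among knockouts, so every knockout library was higher in both sums. OPC marker sums overlapped in these cultures, at 2048 to 2452 and 2111 to 2368. The part of the markers in the OPC results was not tested. In bulk RNA, fewer cells of a type and less RNA per cell cannot be told apart. SRF-KO OL replicate 4 stood apart from the other OL libraries, with 14.2% of its counts from mitochondrially encoded genes against 9.08% to 11.6% in the other 7. It had a total of 5133146 expected counts and, at 4.34 normalised CPM, the highest Srf level of the knockout OL libraries. The main OL results below are given with and without it.

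**Figure D1:**
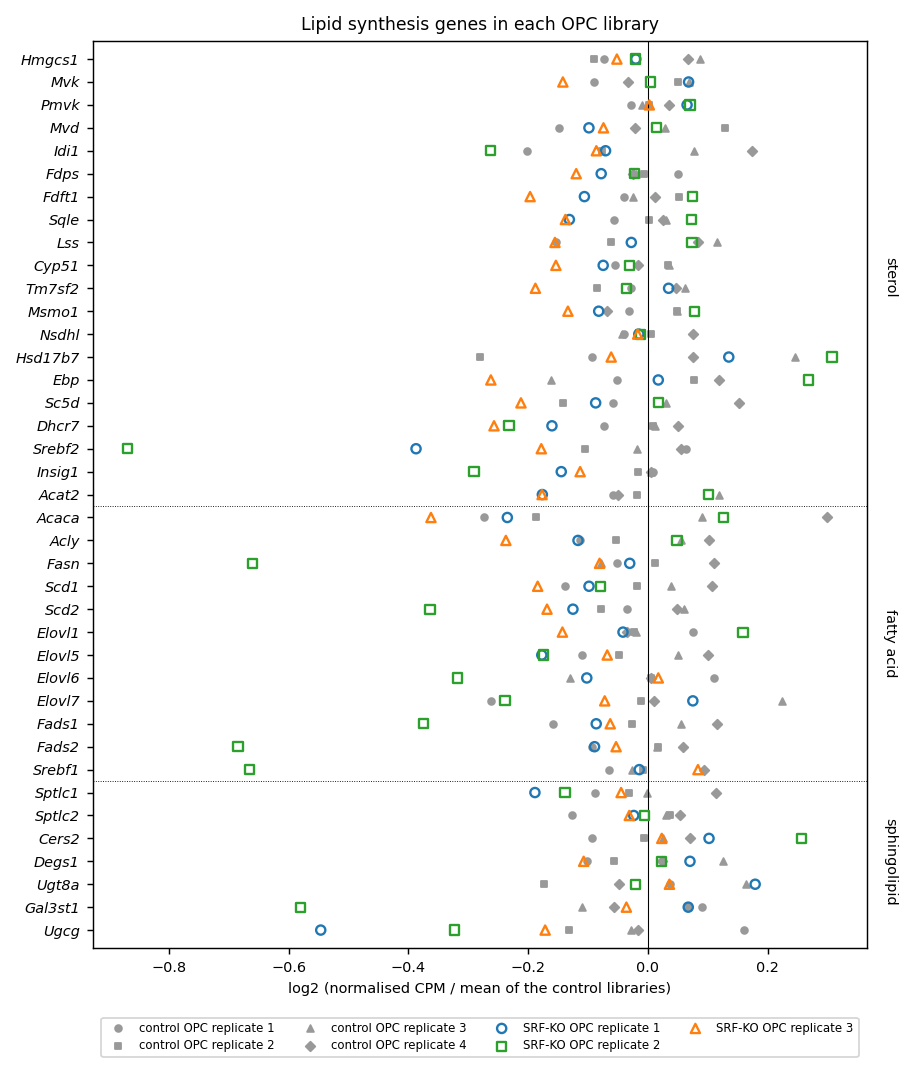
Level of 39 lipid synthesis genes in each of 7 OPC libraries, as log2 of normalised CPM over the mean of the 4 control libraries, with genes in pathway order from top to bottom. Grey symbols are control and open coloured symbols knockout libraries. Srebf2, Dhcr7, Insig1, Scd2 and Ugcg have all 3 knockout libraries left of all 4 controls, and SRF-KO OPC replicate 2 lies far left for Srebf1, Fads2 and Fasn.

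Promoters of 33 of the 40 genes were present in the RefSeq promoter table (GRCm38.p6, 250 bases before to 50 after each start). The CCAAT box (CCAAT on either strand), a site of the NF-Y factor that works beside SREBPs, occurred in 16 of 17 sterol promoters (94.1%), in 5 of 9 fatty acid promoters (55.6%) and in 4 of 7 sphingolipid promoters (57.1%), against 41.1% of the promoters of all 27025 genes in the table. The E-box CACGTG occurred in 7 of the 33 (21.2%), against 8.09% of all genes. The sterol regulatory element TCACNCCAC, in which N is any base, occurred in 1 of the 33 (Hmgcs1), against 1.44% of all genes. The CArG box, the SRF site, occurred in 0 of the 33, against 1.81% of all genes. Such a match describes the letters of the window and is neither a bound site nor a cause. The 150 bases before the start are shown for 4 genes that the results return to or that carry these letters, in the direction of transcription, 5′ to 3′, with sterol regulatory elements and CCAAT boxes in capitals (ATTGG is CCAAT on the other strand, and in Fasn matches on both strands overlap in CCAATTGG). Hmgcs1 lies at chr13:119690201-119690350 on the plus strand, Nsdhl at chrX:72918371-72918520 on the plus strand, Mvd at chr8:122443423-122443572 on the minus strand and Fasn at chr11:120824548-120824697 on the minus strand.
Hmgcs1: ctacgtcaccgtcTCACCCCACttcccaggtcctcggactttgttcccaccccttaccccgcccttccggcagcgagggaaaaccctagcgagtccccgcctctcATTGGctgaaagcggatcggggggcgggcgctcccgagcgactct
Nsdhl: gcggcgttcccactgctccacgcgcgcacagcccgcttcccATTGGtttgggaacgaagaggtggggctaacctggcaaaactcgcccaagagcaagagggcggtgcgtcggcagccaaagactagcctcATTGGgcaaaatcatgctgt
Mvd: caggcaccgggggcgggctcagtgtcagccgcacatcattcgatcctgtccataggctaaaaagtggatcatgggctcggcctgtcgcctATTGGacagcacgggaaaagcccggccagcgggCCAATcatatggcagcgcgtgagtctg
Fasn: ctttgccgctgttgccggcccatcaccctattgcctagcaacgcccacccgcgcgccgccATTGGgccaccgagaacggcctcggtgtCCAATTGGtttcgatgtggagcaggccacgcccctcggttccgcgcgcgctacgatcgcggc

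In Hmgcs1 the sterol regulatory element begins 137 bases upstream of the start, and the CCAAT box shown begins 45 bases upstream. Within the 150 bases shown, Nsdhl and Mvd each hold 2 CCAAT boxes and no match to the sterol regulatory element, and the whole window of Nsdhl holds 4.

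Sterol enzymes were among the more abundant of these transcripts in OPCs. In control OPCs, where the files list spliced lengths so that genes can be compared per length, 23 of the 40 genes averaged at least 100 TPM (abundance per length, scaled to a fixed total) and 3 averaged under 10 TPM. The highest were Fdps, which makes farnesyl diphosphate (932 ± 59.3 TPM, SD, n = 4), the stearoyl-CoA desaturase Scd2 (715 ± 81.4), Hmgcs1, the entry enzyme of the mevalonate path (666 ± 90.0) and Acat2, which joins acetyl-CoA units (443 ± 58.3). These 4 did not all differ from their neighbours in the order beyond their SD: Scd2 and Hmgcs1 overlapped, as did Acat2 and the sterol methyl oxidase Msmo1 (435 ± 40.003). The regulators were lower, at 128 ± 10.1 TPM for Insig1, 76.5 ± 7.58 for Srebf1 and 51.2 ± 4.21 for Srebf2. The lowest were the glucosylceramide synthase Ugcg (7.79 ± 0.551), the elongase Elovl7 (1.96 ± 0.409) and Fa2h, which hydroxylates the fatty acids of myelin glycolipids (0.532 ± 0.257). Fa2h did not pass the filter on low counts in OPCs and was not tested there.

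Loss of Srf in OPCs left no lipid synthesis gene past the test, although most estimates lay slightly below 0. Of the 39 genes tested, 0 were called at an adjusted p under 0.05 in edgeR's quasi-likelihood test with Benjamini-Hochberg adjustment over 13271 genes, of which 0.0678% were called. At an unadjusted p under 0.05 there were 5 of 39, all lower in the knockout, against 6.33% of all genes lower and 5.57% higher at this p, and DESeq2 also called 0 of 39. The log2 fold change, knockout over control, was negative for 34 of 39 genes, against 50.2% of all genes tested. The median was -0.06 for the 20 sterol genes, -0.14 for the 12 fatty acid genes and -0.02 for the 7 sphingolipid genes, against -0.00127 for all genes. The genes share the same 7 libraries, so the 39 estimates are not independent. By library, the sterol median of log2 CPM minus the control mean was -0.05 to 0.04 in controls. It was -0.08, 0.01 and -0.14 in SRF-KO OPC replicates 1 to 3, so replicate 2 lay inside the control range. SRF-KO OPC replicate 3 was the lowest of the 7 libraries for 17 of the 39 genes, against 13.0% of all genes tested. Control OPC replicate 4 was the highest for 14 of the 39, against 16.2% of all genes, and the lowest for 0. The number negative was 28 of 39 without SRF-KO OPC replicate 3. It was 32 of 39 without SRF-KO OPC replicate 2 and also without control OPC replicate 4. The SE of the 39 fold changes ran from 0.07 to 0.21, with a median of 0.09.

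The 3 knockout and 4 control libraries did not overlap for 5 of the 39 genes, all lower in the knockout, where 6.25% of all genes tested had every knockout library below every control and 5.96% every one above. Among the regulators, Srebf2 had 185, 164, 175 and 184 CPM in control OPC replicates 1 to 4, while replicates 1 to 3 of the knockout had 135, 96.8 and 156. The knockout libraries were all below the controls and spread more widely, with replicate 2 the lowest. The log2 fold change of Srebf2 was -0.45 (SE 0.14, edgeR adjusted p 0.270), or 0.731 of control, with a 95% interval from -0.75 to -0.15. Without SRF-KO OPC replicate 2 it was -0.28, and without replicate 3 it was -0.61. Insig1 had 229, 225, 228 and 228 CPM in controls and 206, 186 and 210 in knockouts. Its groups were apart because the controls lay close together, and its log2 fold change was -0.18 (SE 0.08, edgeR adjusted p 0.395).

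Among the sterol enzymes, Dhcr7, a reductase at the end of the pathway, had 254, 269, 269 and 276 CPM in control OPCs and 239, 227 and 223 in SRF-KO OPCs. All knockout libraries lay below all controls, and the log2 fold change was -0.22 (SE 0.07, edgeR adjusted p 0.310). Hmgcs1, the most abundant sterol transcript by CPM, had 1374, 1357, 1536 and 1515 CPM in controls and 1425, 1425 and 1394 in knockouts. The knockout values sat inside the control range, with a log2 fold change of -0.03 (SE 0.07, 95% interval -0.18 to 0.12). The other sterol genes, Mvk, Pmvk and Mvd of the mevalonate steps, Idi1, Fdps and Fdft1 of the isoprenoid steps, Sqle, Lss, Cyp51, Tm7sf2, Msmo1, Nsdhl, Hsd17b7, Ebp and Sc5d from squalene onward, and Acat2, ran from -0.14 (Idi1) to 0.14 (Hsd17b7), with overlapping groups in all 16.

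In the fatty acid group all 12 estimates were negative, from -0.25 (Fads2) to -0.000812 (Elovl1). By library, the median of the 12 in log2 CPM minus the control mean was -0.10 to 0.10 in controls. It was -0.09, -0.27 and -0.07 in SRF-KO OPC replicates 1 to 3, so only replicate 2 lay outside the control range. Scd2, the most abundant of the 12 by CPM and by TPM, had 2641, 2562, 2822 and 2797 CPM in control OPCs and 2480, 2102 and 2407 in SRF-KO OPCs. Its groups did not overlap, and the log2 fold change was -0.22 (SE 0.07, edgeR adjusted p 0.301). Fads2, a desaturase of polyunsaturated fatty acids, had 331, 357, 357 and 367 CPM in controls and 332, 220 and 340 in knockouts. Only SRF-KO OPC replicate 2 was low, the other 2 knockout libraries lay within the control range, and the log2 fold change of -0.25 (SE 0.13, edgeR adjusted p 0.478) became -0.07 without that library. The elongase Elovl5 had 403, 420, 450 and 466 CPM in controls and 384, 385 and 414 in knockouts. The groups of Elovl5 overlapped (log2 fold change -0.14, SE 0.08).

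SRF-KO OPC replicate 2 differed from the other knockout libraries of OPCs for some of these genes. It was the lowest of the 7 libraries for 10 of the 39 and the highest for 8, against 23.8% and 22.0% of all genes tested. On the log2 CPM scale its deviations from the mean of the other 2 knockout libraries had an SD of 0.28 over the 39 genes and 0.52 over all genes tested. For the other OPC libraries, each against the rest of its group, these SDs were 0.10 to 0.20 and 0.40 to 0.46. SRF-KO OPC replicate 2 lay below the mean of the other 2 knockout libraries by more than 0.5 for 5 of the 39 genes. These were Srebf1 (-0.70), Fads2 (-0.61), Fasn (-0.60), the sulfatide-forming sulfotransferase Gal3st1 (-0.59) and Srebf2 (-0.59). Fasn, the fatty acid synthase, had 342, 357, 336 and 383 CPM in control OPCs and 347, 224 and 335 in SRF-KO OPCs. Srebf1 had 193, 201, 198 and 216 CPM in controls and 200, 127 and 214 in knockouts, so for both genes the other knockout libraries lay near the controls. By TPM, SRF-KO OPC replicate 2 was within the control range for Fasn (116.6 against 115.8 to 151.9). It was below that range for Srebf1 (44.0 against 66.7 to 83.0). The 8 genes with their highest level in it were Sqle, Fdft1, Msmo1, Pmvk, Hsd17b7, Ebp, Elovl1 and Cers2. Its mitochondrial share of 5.07% lay within the range of the other OPC libraries.

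The sphingolipid genes of OPCs differed little between the groups. Ugcg had 23.8, 19.4, 20.9 and 21.1 CPM in control OPCs and 14.6, 17.02 and 18.9 in SRF-KO OPCs. All knockouts were below all controls, by a log2 fold change of -0.34 (SE 0.15, edgeR adjusted p 0.406). The very-long-chain ceramide synthase Cers2 had 197, 209, 214 and 221 CPM in controls and 226, 251 and 214 in knockouts, with overlap (log2 fold change 0.13, SE 0.08, or 0.06 without SRF-KO OPC replicate 2). Sptlc1, a subunit of the serine palmitoyltransferase that starts the pathway, had 55.7, 57.9, 59.1 and 64.0 CPM in controls and 51.9, 53.8 and 57.4 in knockouts, again with overlap (-0.12, SE 0.09). Sptlc2, Degs1, Ugt8a and Gal3st1 lay between -0.17 and 0.07.

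**Figure D2:**
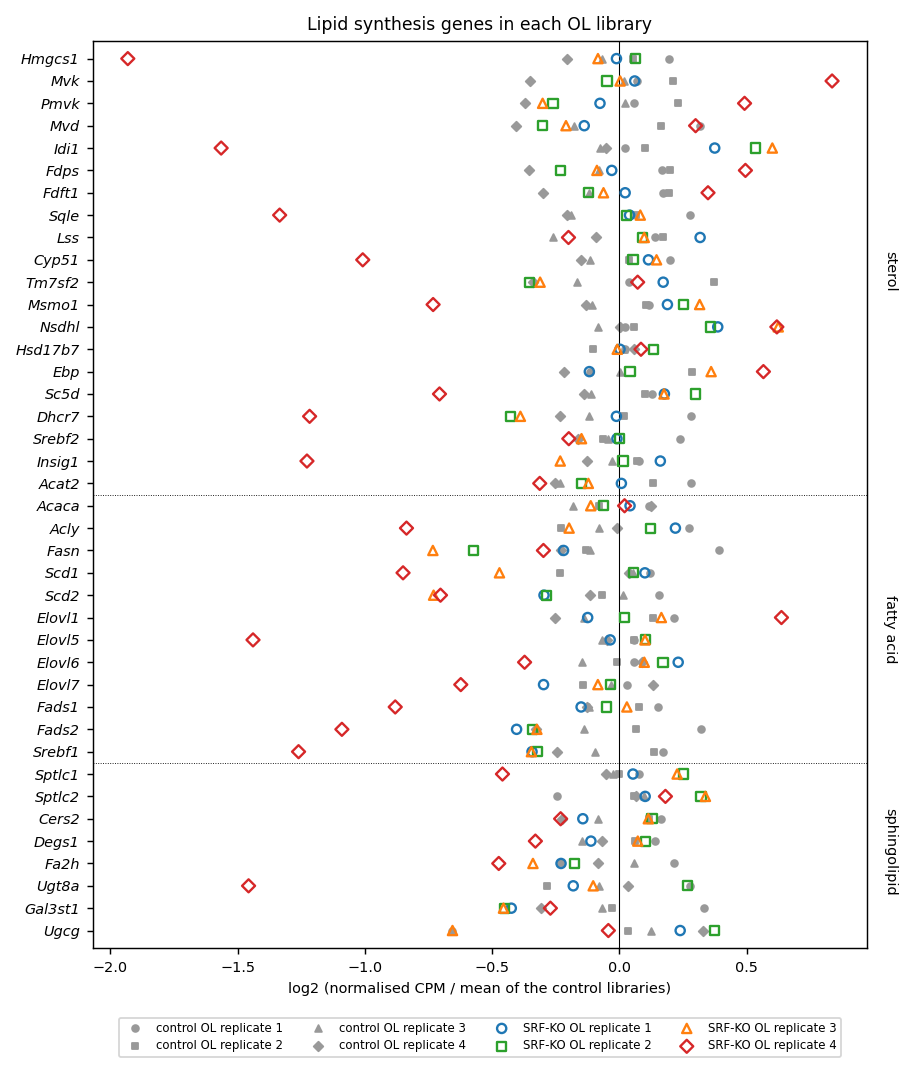
Level of the 40 genes in each of 8 OL libraries, as log2 of normalised CPM over the mean of the 4 control libraries, in the same gene order. Red diamonds mark SRF-KO OL replicate 4, which is the lowest library for 23 genes and the highest for 6, while the other knockout libraries mostly lie among the controls.

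In OLs, too, no gene of the 40 passed the test with all 8 libraries. Nsdhl, above every control in every knockout library, had the smallest p of the 40 in edgeR's test. Of the 40 tested, 0 were called by edgeR against 0.296% of 15193 genes. DESeq2 called 1, Nsdhl, higher. At an unadjusted p under 0.05, 1 gene was higher and 5 were lower, against 5.84% and 5.73% of all genes. The median log2 fold change was 0.02 for sterol genes (10 of 20 negative), -0.23 for fatty acid genes (10 of 12 negative) and -0.04 for sphingolipid genes (5 of 8 negative), against 0.02 for all genes, of which 46.1% were negative. Without SRF-KO OL replicate 4 the 3 medians were -0.02, -0.09 and 0.00566, so those of the sterol and sphingolipid genes changed sign. Every control library lay below every knockout library for Nsdhl and Sptlc2 (2 of 40, against 4.19% of all genes) and above every knockout library for Scd2 and Srebf1 (2 of 40, against 3.9%). Both counts were near the share over all genes. The summed oligodendrocyte and astrocyte markers were also lower in the knockout OLs, as given above. On the same scale of library totals, single markers did not all go that way. Every knockout library lay below every control for 2 of 6 oligodendrocyte markers (Cnp was one) and 1 of 6 astrocyte markers (Gfap), and above every control for 1 of 5 OPC markers (Ptprz1, 596 to 649 against 371 to 565 CPM of library total). Mog was at 96.1 to 139 in controls and 115 to 145 in knockouts, and the astrocyte marker Slc1a3 at 1148 to 1350 in controls and at 1377, 1519, 1472 and 595 in SRF-KO OL replicates 1 to 4. The part of these markers in the lipid gene differences was not tested. The OL tables list genomic spans as gene lengths, so OL counts appear to take in intronic reads. For these 40 genes exons make up 5.24% to 79.3% of the span, and 9 of the spans overlap another protein-coding gene.

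SRF-KO OL replicate 4 lay far from the other knockout libraries for many of these genes. It was the lowest of the 8 OL libraries for 23 of the 40 genes and the highest for 6, namely Ebp, Elovl1, Fdft1, Fdps, Mvk and Pmvk. Among all genes tested it was lowest for 31.3% and highest for 30.1%. On the log2 CPM scale its deviations from the mean of SRF-KO OL replicates 1 to 3 had an SD of 0.73 over the 40 genes and 0.78 over all genes tested. For the other OL libraries, each against the rest of its group, these SDs were 0.11 to 0.32 and 0.35 to 0.48. SRF-KO OL replicate 4 lay more than 1 below the mean of replicates 1 to 3 for 7 genes. These were Idi1 (-2.06), Hmgcs1 (-1.92), Elovl5 (-1.49), the galactosylceramide synthase Ugt8a (-1.45), Sqle (-1.38), Insig1 (-1.20) and Cyp51 (-1.11). It lay more than 0.5 above for 5, the most for Mvk (0.83) and Pmvk (0.70), so enzymes of 1 pathway were at both ends. The 23 genes in which it was lowest had a median spliced length of 2782 bases and a median GC content of 47.7%, and the 6 in which it was highest had 1491 bases and 53.4%. Across the 40 genes, as a description of this library, the Spearman rho of its deviation was -0.41 with spliced length (-0.45 across all genes tested) and 0.55 with GC content (0.26 across all). Such relations were not particular to it. Against the rest of its group, control OL replicate 4 had 0.61 with length and -0.72 with GC content. Control OL replicate 2 had -0.62 and 0.38, and control OL replicate 3 had -0.01 and -0.04. The genes share 1 library in each such value and are not independent, and the part of length or GC content in these levels was not tested.

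**Figure D3:**
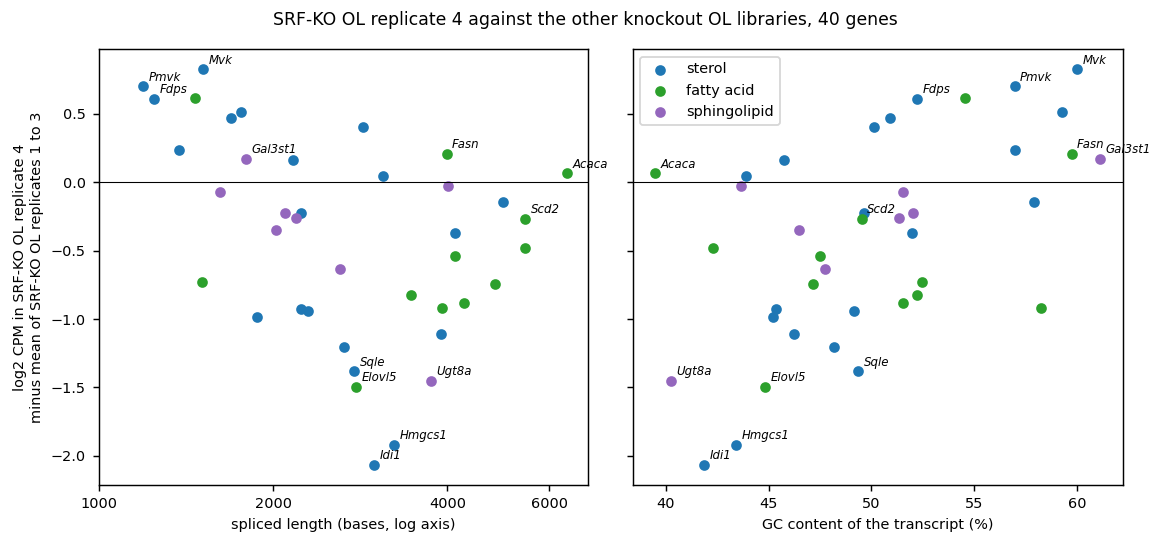
Deviation of SRF-KO OL replicate 4 from the mean of SRF-KO OL replicates 1 to 3 (log2 CPM) for each of the 40 genes, against spliced length (left, log axis) and against GC content of the transcript (right), coloured by pathway. Idi1 at -2.06 and Hmgcs1 at -1.92 are the lowest points, and Mvk at 0.83 is the highest.

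Nsdhl, which encodes a dehydrogenase that helps remove methyl groups from lanosterol-derived sterols, had 50.2, 51.6, 46.7 and 49.6 CPM in control OL replicates 1 to 4 and 64.7, 63.5, 76.3 and 76.0 in SRF-KO OL replicates 1 to 4. The 4 controls lay close together and all 4 knockout libraries were above them, replicate 4 included. The log2 fold change was 0.50 (SE 0.13, 95% interval 0.22 to 0.77, 1.41-fold, edgeR adjusted p 0.168) with all libraries. Without SRF-KO OL replicate 4 it was 0.43 (SE 0.10, 1.35-fold), and the adjusted p of 0.0295 passed the threshold. In that fit 4.12% of 15434 genes were called, 231 higher and 405 lower, against 10 and 35 with all 8 libraries.

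Idi1, the isomerase of the isoprenoid building blocks, was chosen for description after its values were seen. It had 226, 239, 211 and 214 CPM in control OLs and 289, 323, 338 and 75.3 in SRF-KO OLs. Replicates 1 to 3 of the knockout were above every control and replicate 4 was below every control. The log2 fold change was 0.20 (SE 0.35, edgeR adjusted p 0.883) with replicate 4 and 0.48 (SE 0.10, 95% interval 0.26 to 0.70, edgeR adjusted p 0.0244) without it. Idi1 and Nsdhl were the 2 of 40 genes called in the fit without that library, both higher, against 1.5% of all genes called higher and 2.62% called lower.

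Other sterol genes of OLs showed no common direction. Dhcr7 had 152, 127, 115 and 106 CPM in controls and 124, 92.8, 95.4 and 53.8 in knockouts, with overlap and a log2 fold change of -0.45 (SE 0.23, edgeR adjusted p 0.489), or -0.28 without replicate 4. Ebp, the sterol isomerase, had 15.5, 20.5, 16.8 and 14.5 CPM in controls and 15.5, 17.3, 21.6 and 24.9 in knockouts, with overlap and a log2 fold change of 0.22, or 0.06 without replicate 4. Hmgcs1 had 2076, 1883, 1731 and 1575 CPM in controls and 1802, 1896, 1713 and 476 in knockouts. All but replicate 4 of the Hmgcs1 values were within the control range, and the log2 fold change went from -0.30 (SE 0.35) to -0.03 (SE 0.15) without it. Without replicate 4 every remaining knockout library lay above every control for Idi1, Msmo1, Nsdhl, Sc5d, Elovl6 and Sptlc2 (6 of 40, against 11.7% of all genes). The same fit gave Msmo1 a log2 fold change of 0.23 (edgeR adjusted p 0.247) and the sterol desaturase Sc5d 0.20 (edgeR adjusted p 0.317). The sign of 5 sterol genes turned when that library was left out, none of them called in either fit.

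**Figure D4:**
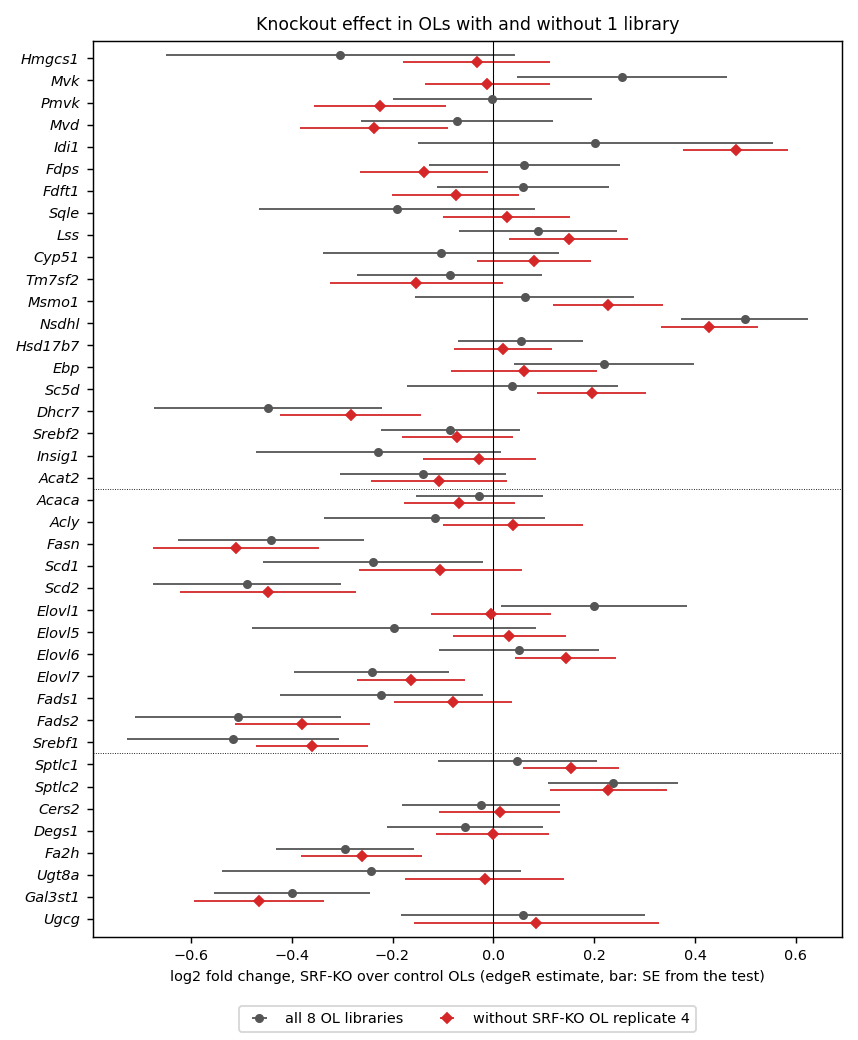
Log2 fold change of the 40 genes, SRF-KO over control OLs, with all 8 libraries (grey circles) and without SRF-KO OL replicate 4 (red diamonds); bars are the SE derived from the edgeR test. Without that library the estimates of Idi1 (0.48) and Nsdhl (0.43) are the highest and Fasn (-0.51) is the lowest, and bars are shorter for 39 of the 40 genes.

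Most fatty acid genes of OLs had negative estimates, and Scd2 and Srebf1 were below every control in every knockout library. Control OL replicate 1 was the highest of the 8 libraries for 19 of the 40 genes, against 14.5% of all genes tested, among them Scd2, Srebf1, Fads2, Fasn, Gal3st1 and Fa2h. Without it the median of the 12 fatty acid genes was -0.19, and the log2 fold changes were -0.43 for Scd2, -0.46 for Srebf1, -0.38 for Fads2 and -0.27 for Gal3st1. Scd2 had 4403, 3769, 3995 and 3652 CPM in control OLs and 3220, 3240, 2384 and 2429 in SRF-KO OLs. Its log2 fold change was -0.49 (SE 0.19, 0.713 of control, edgeR adjusted p 0.347), and -0.45 (edgeR adjusted p 0.155) without replicate 4. Srebf1 had 199, 194, 165 and 149 CPM in controls and 139, 141, 139 and 73.8 in knockouts. Replicates 1 to 3 of the knockout were nearly equal and just under the lowest control, and the log2 fold change of Srebf1 was -0.52 (SE 0.21, edgeR adjusted p 0.380) with replicate 4 and -0.36 (SE 0.11, edgeR adjusted p 0.0829) without it.

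Fads2 had 257, 216, 187 and 164 CPM in control OLs and 156, 163, 165 and 96.8 in SRF-KO OLs. The highest knockout library just reached the lowest control, and the log2 fold change was -0.51 (SE 0.20, edgeR adjusted p 0.373), or -0.38 (0.118) without replicate 4. Fasn had 336, 233, 236 and 218 CPM in controls and 220, 172, 154 and 208 in knockouts. Control OL replicate 1 was high for Fasn, and the groups touched at 218 and 220 CPM. The log2 fold change was -0.44 (SE 0.18, edgeR adjusted p 0.388), or -0.51 (0.0925) without SRF-KO OL replicate 4. The remaining fatty acid genes, Acaca and Acly, which supply malonyl-CoA and cytosolic acetyl-CoA, Scd1, Elovl1, Elovl5, Elovl6, Elovl7 and Fads1, ran from -0.24 to 0.20 with all libraries and from -0.16 to 0.14 without replicate 4. The median of the 12 moved from -0.23 to -0.09 when that library was left out, with 9 of 12 still negative. In the remaining libraries Scd2, Srebf1 and the sphingolipid gene Gal3st1 had every knockout below every control (3 of 40, against 7.53% of all genes).

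**Figure D5:**
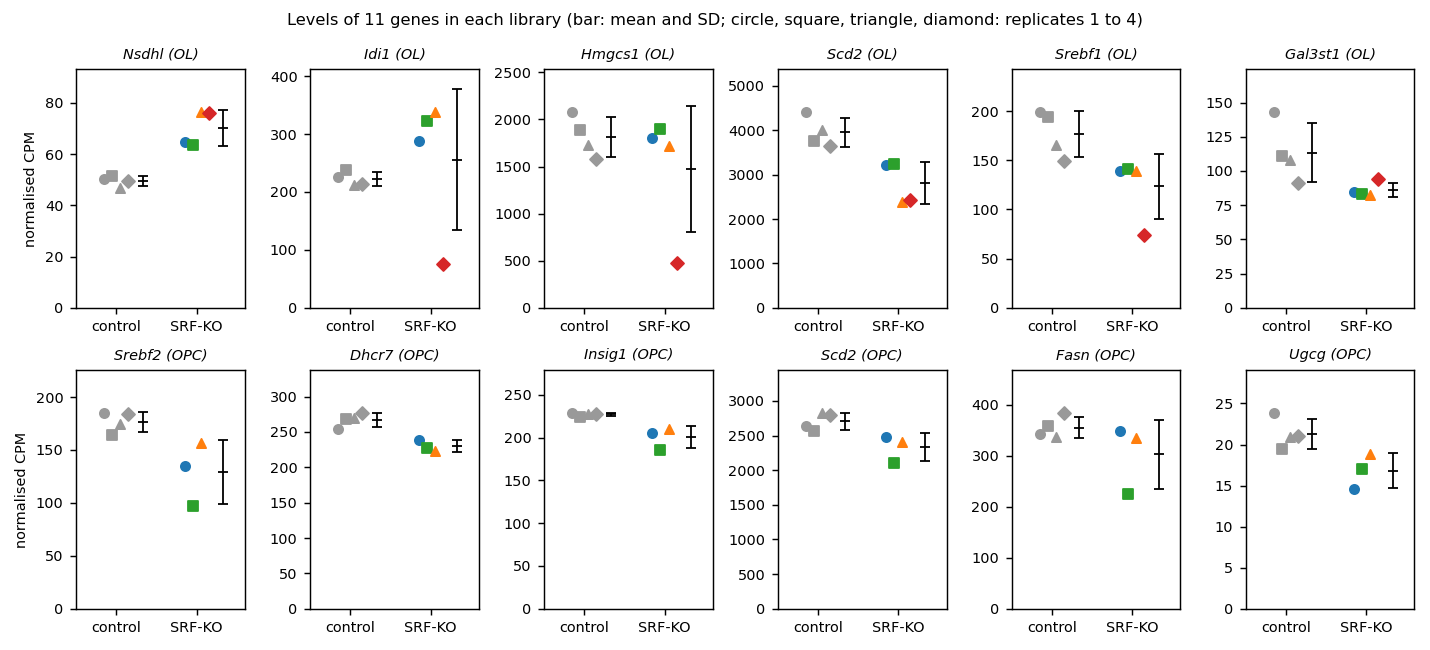
Normalised CPM in each library for 6 genes in OLs (top) and 6 in OPCs (bottom); symbols stand for replicates 1 to 4, bars for the mean and SD of each group, and each vertical axis starts at 0. The Nsdhl knockout values of 63.5 to 76.3 CPM lie above all controls, while Idi1 and Hmgcs1 have replicate 4 far below the other knockout libraries.

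Among the sphingolipid genes of OLs, Gal3st1 was the lowest relative to controls. It had 143, 111, 108 and 91.5 CPM in control OLs and 84.5, 83.0, 82.7 and 93.9 in SRF-KO OLs. Replicates 1 to 3 of the knockout were below all controls and replicate 4 was inside the control range. The log2 fold change of Gal3st1 was -0.40 (SE 0.15, edgeR adjusted p 0.360), or -0.46 (SE 0.13, 0.0588) without replicate 4. Fa2h had 46.2, 34.0, 41.5 and 37.6 CPM in controls and 34.0, 35.3, 31.5 and 28.7 in knockouts, with overlap and a log2 fold change of -0.29 (SE 0.14, edgeR adjusted p 0.444), or -0.26 (0.223) without replicate 4. Sptlc2, the other serine palmitoyltransferase subunit, had 24.8, 30.7, 31.5 and 30.8 CPM in controls and 31.6, 36.8, 37.2 and 33.4 in knockouts. The knockout values of Sptlc2 were just above the controls, of which replicate 1 was low, and the log2 fold change was 0.24 (SE 0.13, edgeR adjusted p 0.537), or 0.23 (0.272) without replicate 4. Ugt8a, the most abundant of the 8 by CPM, had 626, 424, 489 and 528 CPM in controls and 456, 622, 481 and 188 in knockouts. Its groups overlapped, and its log2 fold change was -0.24 (SE 0.30), or -0.02 (SE 0.16) without replicate 4. Sptlc1, Cers2, Degs1 and Ugcg lay between -0.06 and 0.06 with all libraries.

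The difference of the knockout effect between OLs and OPCs was tested in 1 model over all 15 libraries. No gene of the 40 was called, against 0.112% of 16135 genes, and 1 of 40 (Nsdhl) had an unadjusted p under 0.05, against 9.25% of all genes. DESeq2 called Nsdhl alone (adjusted p 0.0190). Nsdhl had 157, 162, 156 and 170 CPM in control OPCs and 160, 160 and 159 in SRF-KO OPCs, so the knockout values lay inside the control range there, and the difference of its log2 fold changes, OL minus OPC, was 0.49 (SE 0.15, edgeR adjusted p 0.247). For Srebf2 the difference was 0.36 (SE 0.20, edgeR adjusted p 0.618), with log2 fold changes of -0.45 in OPCs and -0.08 in OLs, and without SRF-KO OL replicate 4 it was 0.40 (edgeR adjusted p 0.280). Without SRF-KO OL replicate 4 the difference for Idi1 was 0.63 (edgeR adjusted p 0.0369), the 1 call among the 40, against 0.836% of 16023 genes, and for Nsdhl it was 0.46 (edgeR adjusted p 0.0734). Stage, the virus used and the way the authors counted genes change together between these sets of libraries and cannot be told apart.

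For the same reason levels are set side by side without a comparison. CPM was scaled within each stage, so the OPC and OL values are not on the same scale. Fa2h had 0.380 to 0.687 CPM in control OPCs and 34.0 to 46.2 in control OLs, Elovl7 had 6.12 to 8.57 and 71.4 to 86.4, Gal3st1 had 11.4 to 13.1 and 91.5 to 143, and Ugt8a had 50.3 to 63.5 and 424 to 626. Fdps had 674 to 710 CPM in control OPCs and 79.4 to 116 in control OLs, Acat2 had 616 to 697 and 189 to 273, and Acly had 559 to 649 and 152 to 215. These 7 genes were picked after their values were seen.

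Other genes of these pathways, 54 in 4 lists with 50 tested in each stage, showed 0 calls in either stage by edgeR or DESeq2, and 0 of 51 in OLs by edgeR without SRF-KO OL replicate 4. At an unadjusted p under 0.05 by edgeR, 4 were higher and 4 lower in SRF-KO OPCs, and 4 were higher and 3 lower in SRF-KO OLs, against 5.57% and 6.33% of all genes in OPCs and 5.84% and 5.73% in OLs. Without SRF-KO OL replicate 4 the OL counts were 7 and 7. Among 14 genes of SREBP processing and sterol handling the median log2 fold change was 0.04 in OPCs and -0.06 in OLs (13 tested in each). The sterol sensor gene Nr1h3 had a low level of 1.20 ± 0.399 CPM in control and 2.51 ± 0.488 in SRF-KO OPCs (SD, n = 4 and 3). Its groups did not overlap, and the log2 fold change was 1.07 (SE 0.41, edgeR adjusted p 0.355). Cyp46a1, the sterol hydroxylase of brain, had 13.8 ± 2.22 CPM in control and 9.25 ± 0.697 in SRF-KO OLs, also with no overlap (log2 fold change -0.57, edgeR adjusted p 0.204, or 0.0568 without SRF-KO OL replicate 4). Insig2, the relative of Insig1, was at 33.2 ± 3.08 CPM in control and 42.3 ± 2.07 in SRF-KO OLs (log2 fold change 0.35, edgeR adjusted p 0.295, or 0.0971 without that library). Among 8 genes that supply acetyl-CoA and NADPH the medians were -0.06 in OPCs and -0.13 in OLs, and G6pdx, which makes NADPH, had log2 fold changes of 0.27 and 0.22. Among 16 genes of fatty acid elongation and activation the medians were -0.10 and 0.08 (15 tested in each), and the arachidonate-activating ligase Acsl4 had 91.0 ± 3.66 CPM in control and 75.3 ± 1.34 in SRF-KO OPCs (log2 fold change -0.27, edgeR adjusted p 0.269). Among 16 other sphingolipid enzymes the medians were -0.07 and 0.01 (14 tested in each), with Gltp, a glycolipid transfer protein, at 476 ± 93.4 CPM in control and 359 ± 26.4 in SRF-KO OLs (log2 fold change -0.41, edgeR adjusted p 0.393, or -0.46 and 0.0911 without that library).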

How the data were processed

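The expected count in each deposited table is the RSEM estimate of reads per gene that the authors made, and the TPM in the deposited tables is that count per effective length, scaled to a fixed total; both come from RSEM gene tables per the file headers. The submitters' processing notes name bcl2fastq, STAR and RSEM without versions and the builds GRCm38 and Rnor_6.0, and all gene IDs here are mouse. Libraries were made with Smart-seq2 and sequenced as single reads of 63 bases, per the labels' protocols. Among 8995 genes with 1 annotated transcript and introns, the listed length equalled the spliced length (GENCODE M21, difference of 0 bases) in 89.8% in OPC files and the genomic span in 90.0% in OL files.

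Expected counts were rounded and fitted per stage with edgeR 4.0.16 in R 4.3.3 (filterByExpr, TMM, quasi-likelihood F-test, adjusted p under 0.05). The SE is the absolute log2 fold change over the root of F, and intervals are 95% from it. The members and lists were chosen with earlier results of these data known. Values in every library are given for members called, for the 3 smallest p in each pathway and stage, and for the most abundant of each pathway; Fasn, Srebf1 and Nsdhl in OPCs, Fasn in OLs and Idi1 were added after values were seen. Of each list of other genes, at most the 2 with the smallest p in each stage are named. Alternatives were DESeq2 1.42.0, library totals, no filter, the replicate number as a block, removal of a trend with length or GC content (spliced length and GC content chosen after seeing the data), and leaving out each library. Tests were checked on simulated counts with changes larger than those estimated for the members and with no library standing apart. That check does not show how often changes as small as those of the members would be called. For SRF-KO OLs the treatment tag ends in the word control, and groups follow the titles. Olig2-Cre and mesenchymal stem cells are named in the design note of the series but in no sample label, and the sample labels are followed here.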

Additional observations from a re-analysis of the deposited data

Results flagged for a closer look

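The highest or lowest of 4 libraries lay far from the other 3, by Dixon's 95% critical value, in 15 of 119 gene and group combinations, where chance flags about 1 in 20 groups. SRF-KO OL replicate 4 accounted for 10 of them. It was low for Hmgcs1 (476 CPM, the other knockout OL libraries 1713 to 1896), Sqle (113, others 290.2 to 301), Cyp51 (143, others 299 to 319), Msmo1 (185, others 349.8 to 382), Sc5d (145, others 268 to 292), Elovl5 (198, others 523 to 576), Fads2 (96.8, others 156 to 165) and Srebf1 (73.8, others 139 to 141). It was high for Mvk (56.4 CPM, others 30.6 to 32.95) and Gal3st1 (93.9, others 82.7 to 84.5).

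Control OL replicate 1 was high for Fasn (336 CPM, others 218 to 236) and low for Sptlc2 (24.8, others 30.7 to 31.5). Control OPC replicate 1 was high for Elovl1 (58.0 CPM, others 53.7 to 54.3) and low for Sptlc2 (40.2, others 44.8 to 45.5). Control OPC replicate 2 was low for Insig1 (225 CPM, others 228 to 229), where the 3 others differed by less than 1 CPM.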

How the results depend on the processing

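No member was called in OPCs under any of the 13 alternatives, and the 3 medians kept their sign in each. Without SRF-KO OPC replicate 2 or 3 the sterol median in OPCs was -0.10 or -0.02 and the fatty acid median -0.08 or -0.19. In OLs, DESeq2 called 1 member (Nsdhl), the fit without SRF-KO OL replicate 4 called 2, and the other 13 alternatives called 0; leaving out a library gave 0 to 2. Genes called in OPCs were 3 higher and 6 lower, and 70 and 69 with DESeq2, 51 and 50 without the filter, 18 and 10 with the listed length trend removed, 6 higher with library totals, 5 higher with the GC trend removed, and 0 to 1 higher and 1 to 3 lower without 1 library. Genes called in OLs were 10 higher and 35 lower, and 100 and 199 with DESeq2, 32 and 97 without the filter, 58 and 109 with the spliced length trend removed, 39 higher with library totals, 21 higher with the listed length trend removed, and 4 to 231 higher and 3 to 405 lower without 1 library. Library totals moved the median of all OL genes to 0.24 and those of the sterol, fatty acid and sphingolipid genes to 0.25, -0.00426 and 0.19, close to or below that shift; the cause was not tested. The fatty acid median in OLs ran from -0.316 to -0.093 without 1 library. Hmgcs1 in OPCs, not called in any fit, ran from -0.059 without control OPC replicate 2 to 0.000905 without control OPC replicate 3. For the difference between stages, DESeq2 called 169 genes with 1 member (Nsdhl), and the fit without SRF-KO OL replicate 4 called 134 with 1 (Idi1), against 18 and 0.

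Same-numbered libraries did not deviate together (r from -0.02 to 0.05 in OPCs and from -0.28 to 0.03 in OLs). With the replicate number as a block, 1 gene was called higher and 1 lower in OPCs, 3 and 2 in OLs and 0 for the difference between stages, with 0 members in each, and the adjusted p of Nsdhl in OLs was 0.501.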
